A study of Mus musculus with 6 samples.

Results

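Mouse B cells transduced with IKK bearing the K171E substitution were compared with B cells that carried the empty retroviral vector. The cells were mature splenic B cells that had been activated and spin-infected. After infection they stayed in mitogen for 36 hours, were washed, spent 24 hours without mitogen (here anti-CD40 is named) and were sorted for the green fluorescent protein that all vectors encode. The comparison used the 4 arrays of the groups IKK_K171E (retrovirus carrying IKK with the K171E substitution) and EV (retrovirus with the fluorescent marker alone), 2 arrays each, out of 6 arrays in the series. The 2 arrays of the third group, MYD88_L265P (retrovirus carrying MYD88 with the L265P substitution), entered the same model, which gave them a share in the estimate of spread. RNA was measured as log2 signal on the Affymetrix ST 1.0 array for mouse, and 21542 of the 24743 features of the table, those with exactly 1 gene symbol, were tested. The labels call the 2 arrays of a group biological replicates, and they give neither the strain, age and number of mice nor which IKK subunit, or from which species, the construct encodes.

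The IKK complex holds the catalytic kinases IKK alpha and IKK beta and the scaffold NEMO. Once active, it phosphorylates the IkB proteins, which are then degraded and release NF-kB dimers into the nucleus. In B cells this route carries signals from CD40, the B cell receptor and Toll-like receptors, and NF-kB in turn switches on its own inhibitors, survival genes, chemokines and costimulatory molecules. K171 lies in the kinase domain of IKK beta, and substitutions there have been found in human B cell tumours as activating changes.

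Ikbkb, the gene of IKK beta, was examined first, since it bears on the label. Its log2 signal was 9.98 and 10.22 in EV and 11.35 and 10.68 in IKK_K171E, and 9.69 and 9.68 in MYD88_L265P. Both IKK_K171E arrays stood above all 4 others, and replicate 1 stood 0.67 above replicate 2. The mean difference from EV was 0.91 (SE 0.21, n = 2 a group). That SE, like every SE of the reported fit, draws on the spread within all 3 groups. For Ikbkb the SD was 0.17 in EV, 0.47 in IKK_K171E and 0.0088 in MYD88_L265P. The difference did not pass the threshold used throughout, a limma p-value below 0.05 after Benjamini-Hochberg adjustment over all 21542 features (adjusted p = 0.0848). It was 1.25 without IKK_K171E replicate 2 and 0.58 without replicate 1. Ikbkg, the gene of NEMO, was 8.63 and 8.73 in EV and 8.45 and 8.56 in IKK_K171E, and Myd88, the adaptor of Toll-like receptors, was 9.30 and 9.35 in EV and 9.43 and 9.14 in IKK_K171E, so neither was raised in the IKK_K171E arrays. Chuk, the gene of IKK alpha, was not analysed here.

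In the cells with IKK_K171E, 206 features (198 genes) were higher and 89 features (89 genes) lower than with the empty vector. These were 0.956% and 0.413% of the features tested, 1.37% together, and each list count below is to be read beside these shares. Increases ran from 0.49 to 2.37 on the log2 scale with a median of 0.85, and 80 of them reached 2-fold. Decreases ran from -0.51 to -1.33 with a median of -0.69, and 8 reached 2-fold. In all 295 called features both IKK_K171E arrays lay on one side of both EV arrays, which was also true, upward, of 17.6% and, downward, of 28.4% of all features tested. SEs among the called features ran from 0.0822 to 0.374 and adjusted p-values from 0.00498 to 0.0497. Precision is limited by the number of arrays. The reported SEs also draw on MYD88_L265P, the group with the least spread by estimated array weights, which are larger for tighter replicates. The weight was 1.45 for each MYD88_L265P array, 0.87 for each EV array and 0.79 for each IKK_K171E array. With these weights in the fit, 99 features were called higher and 24 lower. With only the 4 arrays of EV and IKK_K171E in the fit, 44 features were called higher and 7 lower. Whether that drop comes from the fewer arrays or from the loss of the tighter group was not tested.

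The 2 IKK_K171E arrays did not move equally far. Of the 206 features called higher, 148 (71.8%) were higher in replicate 1, the array with more Ikbkb signal, than in replicate 2. Of the 89 called lower, 65 (73.0%) were lower in replicate 1. Over all tested features 47.6% were higher in replicate 1. Whether these gaps, or those of the lists below, follow the Ikbkb level was not tested. With 2 arrays it cannot be told apart from other differences between them. In each fit that leaves out 1 array, here and below, the reduced group keeps 1 array and adds nothing to the estimate of spread. Calls and adjusted p-values of such fits rest on the spread within the other groups. Without IKK_K171E replicate 1, 0 features passed in limma after adjustment, although 1186 were higher and 1169 lower at an unadjusted p below 0.05. Without replicate 2 of the same group, 418 features were higher and 72 lower, and 141 and 46 of them were among those called with all arrays. Without EV replicate 1 the counts were 411 and 95, and without EV replicate 2 they were 96 and 43. Every count of called genes below is therefore 0 without IKK_K171E replicate 1.

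**Figure D1:**
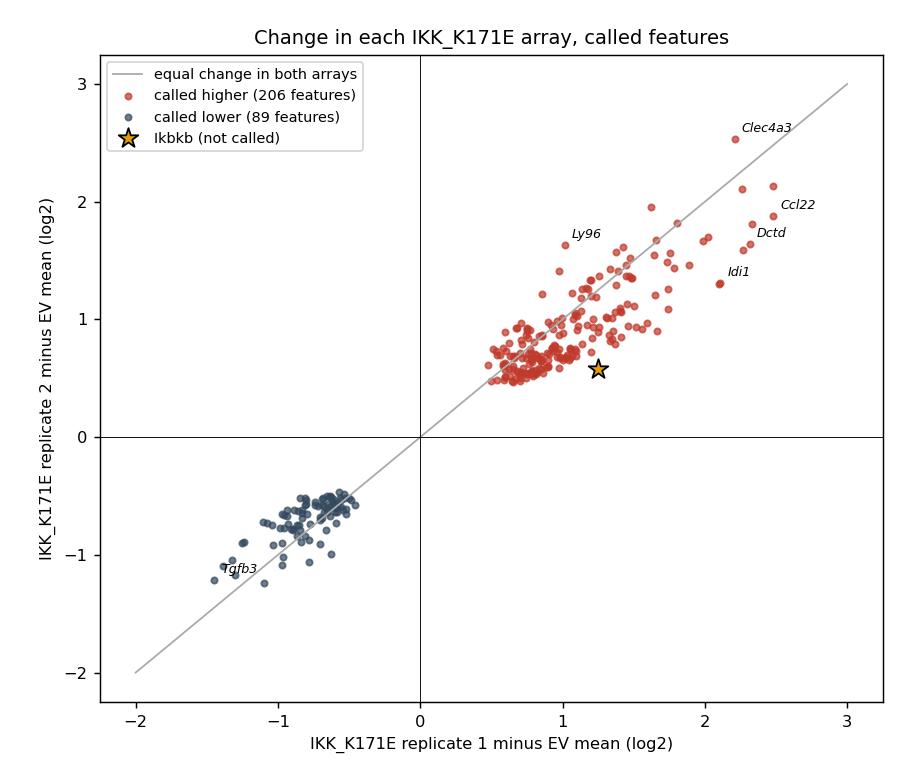
Log2 signal of IKK_K171E replicate 1 (x axis) and replicate 2 (y axis), each minus the mean of the 2 EV arrays, for the 206 features called higher (red) and 89 called lower (dark blue), with Ikbkb as a star and the line of equal change in grey. Most points lie farther from 0 along the x axis than along the y axis, and Ikbkb lies at 1.25 and 0.58.

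Over the features called higher the median of replicate 1 minus replicate 2 was 0.16, and over those called lower it was -0.09. The 10 called genes chosen for the widest gap between the 2 IKK_K171E arrays follow as a description. Idi1, which isomerises isopentenyl diphosphate for sterol synthesis, was 8.20 and 7.98 in EV and 10.20 and 9.40 in IKK_K171E. Pno1, a ribosome assembly factor, was 8.31 and 8.30 in EV and 9.97 and 9.21 in IKK_K171E, and Dctd, which deaminates dCMP on the way to thymidylate, was 8.40 and 8.16 in EV and 10.59 and 9.92 in IKK_K171E. Clec4n, Ms4a6d, Ppa1, Tfrc, Ccl22 and Gpatch4 were also higher in replicate 1, Tfrc (transferrin receptor) at 11.34 and 10.72 and Ppa1 (inorganic pyrophosphatase) at 11.16 and 10.52. Ly96, the partner of TLR4, was the 1 of these 10 genes that was higher in replicate 2, at 10.09 and 10.71 beside 9.16 and 8.98 in EV.

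**Figure D2:**
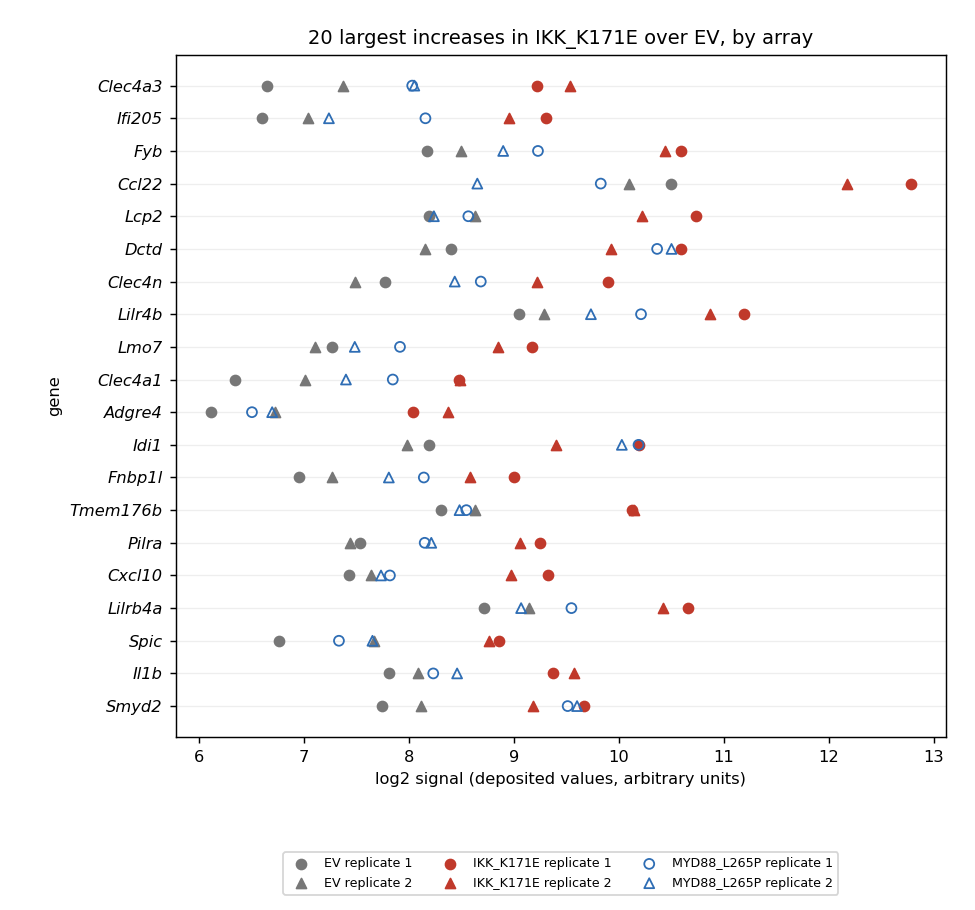
Log2 signal in each of the 6 arrays for the 20 genes with the largest increases in IKK_K171E over EV, ordered by the difference; filled grey symbols are EV, filled red symbols IKK_K171E and open blue symbols MYD88_L265P, with circles for replicate 1 and triangles for replicate 2. Both red symbols lie to the right of both grey symbols in each row, and in the Ccl22 row the blue symbols lie to the left of the grey ones.

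The list of IKK kinases and their upstream adaptors and kinases held 23 genes, of which 17 were measured. Of 17 measured genes of the IKK complex and its upstream adaptors and kinases, 0 passed in either direction in limma, and their median difference was -0.04, beside -0.04 over all features. Without IKK_K171E replicate 2, 1 was called higher and 1 lower. The farthest from 0 after Ikbkb were Traf5, an adaptor of TNF receptors, at -0.51 (adjusted p = 0.0802), and Irak2, a kinase downstream of MYD88, at -0.49 (adjusted p = 0.0751). In both the IKK_K171E arrays lay below the EV arrays: Traf5 was 10.41 and 10.37 in EV and 9.75 and 10.01 in IKK_K171E, and Irak2 was 9.01 and 9.17 in EV and 8.56 and 8.63 in IKK_K171E. The kinase genes Tbk1 (0.09), Ikbke (0.19), Map3k7 (0.17), Map3k14 (-0.14) and Irak1 (0.08) differed by less than 0.20. The adaptor genes Tab1, Tab2, Tab3, Traf2, Traf6, Bcl10 and Malt1 lay between -0.28 and 0.08.

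Of the 6 listed genes of NF-kB proteins 5 were measured, and 0 of them passed. Nfkb1, the remaining subunit gene, was not analysed here. Nfkb2, the precursor of p52 in the alternative NF-kB pathway, was 8.68 and 8.69 in EV and 9.24 and 9.09 in IKK_K171E, a difference of 0.48 (SE 0.09, adjusted p = 0.0642), with both IKK_K171E arrays above both EV arrays. Relb, the partner of p52, was 8.07 and 7.97 in EV and 8.23 and 8.35 in IKK_K171E, and Rela, the main activating subunit, was 9.47 and 9.51 in EV and 9.55 and 9.72 in IKK_K171E. Those 3 genes had separated arrays, while Rel (-0.24), the c-Rel gene of lymphocytes, and Bcl3 (-0.28), a nuclear IkB-like coactivator, overlapped.

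Among 20 inhibitors and feedback genes, Tnfaip3 was the 1 that rose and 0 fell. Tnfaip3 encodes A20, an enzyme that edits ubiquitin chains and shuts off the pathway. It was 9.07 and 9.16 in EV and 10.32 and 9.96 in IKK_K171E, a rise of 1.02 (SE 0.14, adjusted p = 0.0291). Nfkbia, the gene of the principal inhibitor IkB alpha, was 9.03 and 9.09 in EV and 10.22 and 9.75 in IKK_K171E. Its difference of 0.92 (SE 0.17) missed the threshold (adjusted p = 0.0554), and under the alternatives its adjusted p ran from 0.0297 with a replicate block to 0.236 without IKK_K171E replicate 1. Tnip3, an A20-binding protein, was 7.63 and 7.35 in EV and 8.24 and 8.23 in IKK_K171E, with a difference of 0.74 (adjusted p = 0.105). Zc3h12c, an RNA-binding nuclease gene, had a difference of 1.00 (adjusted p = 0.195), but its EV arrays were far apart at 9.41 and 10.58. Smaller differences were those of Tnfaip2 (0.46), the anti-apoptotic ubiquitin ligase genes Birc3 (0.38) and Birc2 (0.26), Nfkbie (0.28), Nfkbid (0.15), Traf1 (0.14), Nfkbib (0.12) and Tnip1 (0.07). Below 0 were Nfkbiz (-0.30), an atypical nuclear IkB, Otud7b (-0.25), Tnip2 (-0.18), Nfkbil1 (-0.14), Zc3h12a (-0.13) and Traf4 (-0.07). Cyld (-0.02) and Tnfaip8 (-0.01) were nearest to 0. Without IKK_K171E replicate 2, 3 of the 20 were called higher. Their median was 0.13.

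**Figure D3:**
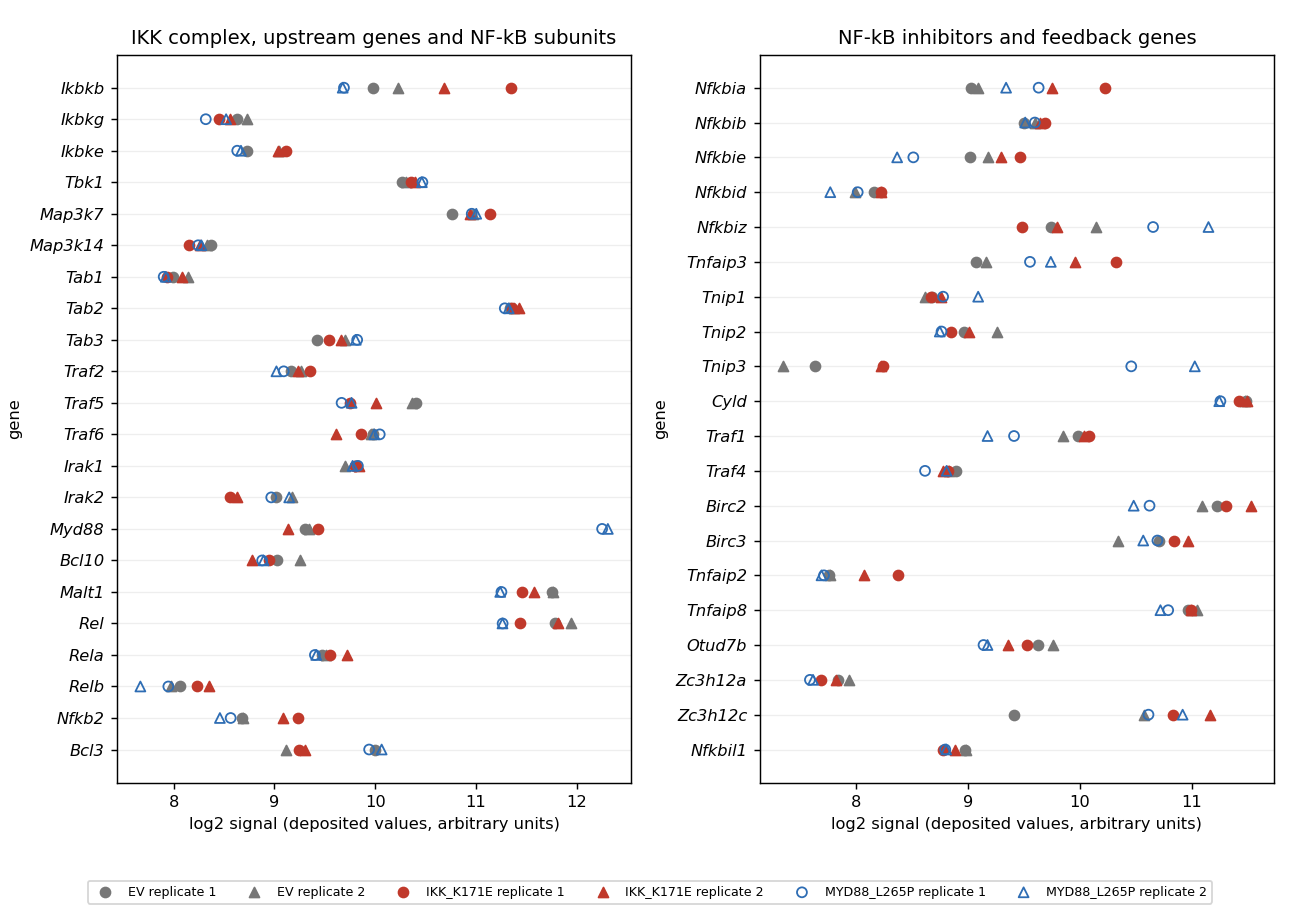
Log2 signal in each of the 6 arrays for the measured genes of the IKK complex, its upstream adaptors and the NF-kB proteins (left) and for NF-kB inhibitors and feedback genes (right); filled grey symbols are EV, filled red symbols IKK_K171E and open blue symbols MYD88_L265P, with circles for replicate 1 and triangles for replicate 2. The red symbols of Ikbkb, Nfkbia and Tnfaip3 lie to the right of both grey symbols, with replicate 1 farther than replicate 2. The other rows have smaller gaps between the means of the red and grey symbols, except Zc3h12c, whose grey symbols lie far apart.

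Markers of monocytes and macrophages are given next, because several gene groups below hold genes of those cells. Of 21 measured markers 1 rose and 1 fell. Their mean log2 signal was 8.52 and 8.69 in EV, 9.19 and 8.97 in IKK_K171E, and 8.62 and 8.52 in MYD88_L265P. Their median difference was 0.59, and 17 of the 21 had a difference above 0. The IKK_K171E arrays lay above both EV arrays for 14 of them (17.6% of all features did so) and below both for 2 (28.4%). The number called higher was 3 without EV replicate 1, 4 without EV replicate 2 and 2 without IKK_K171E replicate 2, and the number called lower was 0 in each case. Csf1r, the CSF1 receptor gene, rose, from 7.66 and 8.20 to 9.30 and 8.99 (1.22, SE 0.19, adjusted p = 0.0383), and Adgre1, the gene of the macrophage antigen F4/80, fell, from 11.30 and 11.11 to 10.10 and 9.97. Lyz2, the lysozyme gene of myeloid cells, was 11.09 and 11.95 in EV and 12.96 and 12.89 in IKK_K171E (difference 1.41, adjusted p = 0.0501). Cd14 (0.07), Cd163 (-0.06), C1qa (0.03) and Cx3cr1 (0.07), also genes of these cells, had differences close to 0, below the list median of 0.59. Their log2 signals ran from 6.66 to 8.64 in the EV and IKK_K171E arrays. In sorted cells measured in bulk, a change in the number of cells of a type and a change in RNA per cell cannot be told apart, and the part of monocytes and macrophages in the results below was not tested. C1qb (0.59) and C1qc (0.66), the partners of C1qa, lay higher and did not pass. The arrays give no detection call, so a low signal was not separated from background.

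The medians of the other 6 marker lists ran from -0.21 to 0.18. The B cell markers Ms4a1 (CD20), Cd79a, Cd79b, Pax5 and Blnk had log2 signals from 10.62 to 12.91 in the EV and IKK_K171E arrays, and of 9 measured B cell markers 0 rose and Cd22 fell, a call lost without either EV array. Among 13 dendritic cell markers Flt3 and Itgax rose (0 without EV replicate 2) and 0 fell, with a median of 0.03; Flt3, a cytokine receptor, went from 10.18 and 10.19 to 10.96 and 10.90, and Itgax, the integrin CD11c, from 7.56 and 7.60 to 8.25 and 8.27. The dendritic cell genes Zbtb46 (0.03), Xcr1 (-0.02), Batf3 (0.06) and Siglech (0.06) were near 0. None of 14 T cell, 11 NK cell, 14 neutrophil or 5 erythroid markers passed in limma with all arrays, and 1 T cell marker was called lower without IKK_K171E replicate 2. The farthest from 0 in those lists were Cd2 (-0.57), Gzmb (0.69), Cxcr2 (0.48) and Epor (-0.14).

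Chemokine genes rose at Ccl22, Cxcl10, Cxcl9 and Cxcl16, with 4 of 21 higher and 0 lower. Ccl22, which attracts T cells bearing CCR4, was 10.50 and 10.09 in EV and 12.78 and 12.18 in IKK_K171E, and the increase was 2.18 (SE 0.37, adjusted p = 0.0467). Cxcl10, an interferon-inducible ligand of CXCR3, was 7.43 and 7.64 in EV and 9.32 and 8.98 in IKK_K171E, and rose by 1.61 (SE 0.14, adjusted p = 0.00840). For both genes the 2 groups were separated by more than the distance between replicates. Cxcl9, another CXCR3 ligand, rose by 0.64, from 7.64 and 7.78 to 8.25 and 8.45. Cxcl16, a transmembrane chemokine and scavenger receptor, rose by 0.75, from 7.57 and 7.85 to 8.42 and 8.50. Ccl5 was uneven, at 9.21 and 9.56 in EV and 9.80 and 11.18 in IKK_K171E, and did not pass (adjusted p = 0.205), here with the higher value in replicate 2. Ccl17, the other CCR4 ligand, was 7.72 and 7.72 in EV and 7.98 and 8.05 in IKK_K171E (0.29, adjusted p = 0.138), and Ccl3 (0.21), Ccl4 (-0.13), Ccl20 (-0.11) and Cxcl13 (-0.25) were closer to 0. The median of the 21 genes was 0.22 and ran from 0.07 to 0.35 when 1 array was left out. The count of 4 became 2 without EV replicate 1, EV replicate 2 or IKK_K171E replicate 2.

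Promoters of 3 of these NF-kB-linked genes that rose are shown because Cxcl10, Tnfaip3 and Ccl22 are textbook targets of NF-kB and differ in what their windows hold. Each window is the RefSeq sequence from 250 bases before to 50 bases after the gene's start in build GRCm38.p6, written 5′ to 3′ on the gene's strand, with matches to the kB consensus motif on either strand in capitals. The Cxcl10 window lies at chr5:92348840-92349139 (minus strand), the first of the Tnfaip3 windows at chr10:19015361-19015660 (minus strand) and the Ccl22 window at chr8:94745434-94745733 (plus strand).
Cxcl10: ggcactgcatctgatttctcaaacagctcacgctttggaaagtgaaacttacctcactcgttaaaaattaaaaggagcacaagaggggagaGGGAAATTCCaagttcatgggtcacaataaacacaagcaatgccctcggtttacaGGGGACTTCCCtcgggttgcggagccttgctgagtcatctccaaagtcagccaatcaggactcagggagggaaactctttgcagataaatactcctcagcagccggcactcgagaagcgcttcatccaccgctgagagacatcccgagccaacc
Tnfaip3: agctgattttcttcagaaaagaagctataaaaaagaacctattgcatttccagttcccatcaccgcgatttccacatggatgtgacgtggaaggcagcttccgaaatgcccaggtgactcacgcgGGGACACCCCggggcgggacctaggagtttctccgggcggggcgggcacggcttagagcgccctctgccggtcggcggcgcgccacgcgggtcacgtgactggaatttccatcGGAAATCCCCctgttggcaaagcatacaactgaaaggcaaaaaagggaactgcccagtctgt
Ccl22: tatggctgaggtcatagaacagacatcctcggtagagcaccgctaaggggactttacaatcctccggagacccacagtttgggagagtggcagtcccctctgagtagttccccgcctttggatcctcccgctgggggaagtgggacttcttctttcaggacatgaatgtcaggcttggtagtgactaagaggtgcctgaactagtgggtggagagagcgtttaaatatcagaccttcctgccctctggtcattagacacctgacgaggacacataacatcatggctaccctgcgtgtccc
The Cxcl10 window held 4 matches that begin at bases -159, -104 and -103 from the start, the last on both strands, and they overlap at the last 2 positions. The first Tnfaip3 window held 3, beginning at -125 on both strands and at -12, and window 2 of this gene, not shown, held 0. Slamf8, which also rose, was scanned too, and its window, not shown, held 1 match that begins at base 37. No match lies in the Ccl22 window, which says only that these letters are not in it. Of 161 genes called higher that had a window, 15 (9.32%) held a match, as did 8 of 69 genes (11.6%) called lower. Among all 27025 genes with a RefSeq window, 2581 (9.55%) held one. That background includes genes that were not tested here, since 19818 genes were tested. A second kB pattern, GGG followed by any 3 bases and TTCC on either strand, overlaps the consensus. It was in 15 of 161 genes called higher (9.32%), 3 of 69 called lower (4.35%) and 6.31% of the same 27025 genes.

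Of 34 measured cytokine genes 3 rose and Tgfb3 fell. Il1b, the inflammatory cytokine IL-1 beta, was 7.81 and 8.09 in EV and 9.38 and 9.57 in IKK_K171E, and rose by 1.52 (SE 0.13, adjusted p = 0.00906). Il15, which sustains memory T and NK cells, was 8.13 and 7.71 in EV and 8.90 and 9.34 in IKK_K171E, and rose by 1.20. Il12b, the shared subunit of IL-12 and IL-23, was 7.51 and 7.57 in EV and 8.22 and 8.47 in IKK_K171E, and rose by 0.80 (SE 0.11). In all 3 the IKK_K171E arrays stood above both EV arrays, and all 3 were higher in replicate 2 than in replicate 1, the reverse of Ikbkb. Tgfb3, a TGF beta ligand, was 9.45 and 8.80 in EV and 7.68 and 7.91 in IKK_K171E, the largest decrease among the called genes (-1.33, SE 0.21, adjusted p = 0.0383). Il1a (0.85, adjusted p = 0.0935), Tnfsf4 (0.81, adjusted p = 0.0574), which encodes the OX40 ligand, and Tnf (0.48, adjusted p = 0.0848) had separated arrays and did not pass. Il6 had EV arrays at 7.19 and 5.39 and IKK_K171E arrays at 7.22 and 6.67, which overlapped, and Il10 was 7.05 and 6.76 in EV and 6.91 and 6.59 in IKK_K171E. The lymphotoxin genes Lta (0.22) and Ltb (0.42) did not pass. The list median was 0.04, near that of all features. Leaving out EV replicate 2 left 1 cytokine gene called higher, and leaving out IKK_K171E replicate 2 left 2 higher and 0 lower.

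Costimulatory and activation genes rose at Cd40, Cd80, Fas and Slamf8, with 4 of 31 higher and 0 lower. Cd40, the receptor for the T cell signal CD40 ligand, was 9.36 and 9.76 in EV and 10.65 and 10.60 in IKK_K171E, and rose by 1.06 (SE 0.13, adjusted p = 0.0244). Cd80, a ligand of CD28, has 2 features, which rose by 1.15 and 0.67; the first was 9.38 and 9.10 in EV and 10.31 and 10.47 in IKK_K171E. Fas, a death receptor, was 10.36 and 10.39 in EV and 10.97 and 10.95 in IKK_K171E (0.58, SE 0.09). Slamf8, a SLAM family receptor, went from 7.63 and 7.81 to 8.38 and 8.30. Cd86, the other CD28 ligand, was at -0.36 (adjusted p = 0.444), Icam1, an adhesion ligand, at 0.24, Cd69 at 0.58 (adjusted p = 0.452) and Il4ra at -0.71 (adjusted p = 0.136). The median was 0.16. Only 2 were called higher without EV replicate 1, 1 without EV replicate 2 and 1 without IKK_K171E replicate 2.

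C-type lectin receptor genes formed the list with the most called members. Of 19 measured lectins, 9 rose and 0 fell, with a median of 0.76; the counts were 7 without EV replicate 1, 5 without EV replicate 2 and 8 without IKK_K171E replicate 2. Clec4a3, of the DCIR group, was 6.65 and 7.37 in EV and 9.22 and 9.54 in IKK_K171E, the largest increase of all (2.37, SE 0.22, adjusted p = 0.0119). Clec4n, which encodes the fungal receptor dectin-2, was 7.77 and 7.48 in EV and 9.89 and 9.22 in IKK_K171E, and Clec4a1 was 6.34 and 7.01 in EV and 8.48 and 8.49 in IKK_K171E. In each of them the lowest IKK_K171E array stood more than 1 log2 unit above the highest EV array. Clec4e (Mincle, a receptor for mycobacterial glycolipid) rose by 1.31, from 8.47 and 8.38 to 9.92 and 9.54, and its partner Clec4d by 1.16, from 7.61 and 7.58 to 8.90 and 8.62. Clec4a2 rose by 1.07, Clec5a by 1.06, Clec12a by 0.94 and Clec10a by 0.69. Clec7a (dectin-1), at 7.90 and 8.56 in EV and 9.88 and 9.22 in IKK_K171E, did not pass (1.32, adjusted p = 0.0646), and Clec4b1 (-0.02), Clec4f (-0.02), Clec4g (0.06) and Clec9a (0.16) were near 0. Clec4n, Clec4d and Clec4e lie next to each other in the RefSeq order of protein-coding genes on chromosome 6, as do Clec4a1 and Clec4a3. These lectins are mostly known from myeloid cells, whose marker list had its median at 0.59.

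Of 13 measured paired immunoglobulin-like receptor genes, 3 rose (5 without EV replicate 2) and 0 fell. Lilr4b was 9.05 and 9.29 in EV and 11.19 and 10.87 in IKK_K171E (1.86, SE 0.18), and its neighbour Lilrb4a, which encodes an inhibitory receptor, was 8.71 and 9.14 in EV and 10.66 and 10.42 in IKK_K171E (1.61, SE 0.20). The 2 genes are close copies, and the array may not separate their transcripts. Pilra, an inhibitory receptor, was 7.54 and 7.44 in EV and 9.25 and 9.06 in IKK_K171E, and its rise of 1.66 (SE 0.10) had an adjusted p of 0.00498, the smallest of the comparison, which Nostrin and Map7d3 shared. Its activating counterpart Pilrb1 was at 0.68 (adjusted p = 0.0831), Pirb at 0.09, Trem2 at 0.07 and Treml2 at -0.46. Fcer1g, the signalling chain shared by activating Fc receptors and several of these lectins, was 8.87 and 9.09 in EV and 10.46 and 10.50 in IKK_K171E, a rise of 1.50 (SE 0.10, adjusted p = 0.00612).

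Among adaptors and cytosolic kinases of immune receptors, Fyb and Lcp2 stood apart from the rest. Fyb encodes ADAP, and Lcp2 encodes SLP-76, which bind each other in T cells and myeloid cells. Fyb was 8.17 and 8.50 in EV and 10.59 and 10.44 in IKK_K171E (2.18, SE 0.15, adjusted p = 0.00612). Lcp2 was 8.19 and 8.63 in EV and 10.74 and 10.22 in IKK_K171E (2.07, SE 0.21, adjusted p = 0.0151). These were 2 of 28 measured members, 0 fell (3 without EV replicate 1), and the next highest difference was that of Gab2 (0.45, adjusted p = 0.0672). The T cell adaptors Lat (0.26), Skap1 (0.17) and Zap70 (0.03) and the B cell kinases Syk (-0.37), Btk (-0.22) and Blk (-0.66, adjusted p = 0.0842) did not pass.

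Other genes among the 20 largest increases belong to none of the lists. Adgre4, a relative of Adgre1, was 6.11 and 6.72 in EV and 8.04 and 8.37 in IKK_K171E, and Spic, a transcription factor of red pulp macrophages, was 6.76 and 7.67 in EV and 8.86 and 8.77 in IKK_K171E. Tmem176b was 8.31 and 8.63 in EV and 10.12 and 10.14 in IKK_K171E, and its neighbour Tmem176a rose by 1.31. The actin regulator Fnbp1l rose by 1.68, the LIM domain gene Lmo7 by 1.83 and the lysine methyltransferase gene Smyd2 by 1.50. Nostrin, which binds nitric oxide synthase, and Map7d3, a microtubule-associated protein, were among the 6 increases with the smallest p-values and rose by 1.45 and 1.42. Nostrin had nearly identical replicates, at 7.16 and 7.16 in EV and 8.61 and 8.62 in IKK_K171E.

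Of 27 measured interferon-inducible genes 0 passed in limma in either direction, the median was 0.13, or from -0.05 to 0.27 when 1 array was left out, and the farthest from 0 was Ifih1, the RNA sensor MDA5, at 0.79 (adjusted p = 0.115). Ifi205, of the interferon-inducible Ifi200 family, was nevertheless among the largest increases, at 6.60 and 7.04 in EV and 9.30 and 8.96 in IKK_K171E (2.31, SE 0.30, adjusted p = 0.0252). Its measured relatives Ifi203 (0.04), Aim2 (-0.002) and Ifi202b (-0.14) were near 0. Only 4 of the 10 listed genes of that family were measured. The guanylate-binding protein gene Gbp2b rose by 1.22, from 8.37 and 7.89 to 9.31 and 9.39, while Gbp3 (-0.03), Gbp5 (0.26) and Gbp7 (0.03) did not pass.

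Innate receptors moved in both directions. Of 23 measured genes Ly96 and Nlrp3 rose and Nod1 fell. Leaving out EV replicate 1 or 2 left 1 or 0 called higher, and the Nod1 call was lost without EV replicate 1 or IKK_K171E replicate 2. Nlrp3, the inflammasome sensor, was 6.94 and 6.88 in EV and 7.54 and 7.43 in IKK_K171E (0.57, SE 0.09), and Nod1, a sensor of bacterial peptidoglycan, was 10.10 and 9.60 in EV and 8.61 and 8.96 in IKK_K171E (-1.07, SE 0.18). The Toll-like receptor genes lay between -0.35 for Tlr9 and 0.81 for Tlr13 (adjusted p = 0.0934), and Tlr4, the receptor that needs Ly96, was at 0.26. Of 29 AP-1 and MAPK feedback genes, Spred1, an inhibitor of Ras signalling, was the 1 that rose, from 8.09 and 8.29 to 9.57 and 9.48 (1.33), and 0 fell.

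Of 18 survival genes 1 rose and 1 fell, and both calls were lost without IKK_K171E replicate 2. Bid, a death-promoting BH3 protein, rose by 0.84, from 8.97 and 9.34 to 10.08 and 9.91, and Bcl2l11, the gene of the BH3 protein BIM, fell by 0.82, from 10.04 and 10.35 to 9.35 and 9.41. Bcl2l1, the gene of BCL-XL and a known NF-kB target, was at 0.30 (adjusted p = 0.291), and Bcl2 (0.15), Mcl1 (-0.20), Cflar (0.17) and Pim2 (-0.24) also did not pass. The Bid call was also lost without EV replicate 1 and the Bcl2l11 call without EV replicate 2. Outside the list, Bcl2a1c, an A1 family feature, rose by 0.86, from 8.76 and 8.66 to 9.68 and 9.46; A1 genes are near-identical copies, so its signal is uncertain, and Bcl2a1a, Bcl2a1b and Bcl2a1d were not analysed here.

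Growth and replication genes had medians above that of all features and few calls. Of 44 measured G1/S and replication genes, Ccne2 and E2f3 rose and 0 fell, while both IKK_K171E arrays stood above both EV arrays for 29 (17.6% of all features did so). Ccne2, a cyclin that drives entry into S phase, was 8.87 and 8.32 in EV and 10.08 and 9.95 in IKK_K171E (1.42, SE 0.17, adjusted p = 0.0230), and E2f3, a transcription factor of the same step, was 8.85 and 8.46 in EV and 9.77 and 9.60 in IKK_K171E (1.03, SE 0.14). The median of the list was 0.69, and leaving out EV replicate 1 or 2 gave 0.93 or 0.37. The called count was 16 without EV replicate 1 and 4 without IKK_K171E replicate 2. Of 34 mitotic genes 0 passed and for 0 were the arrays separated, with EV arrays that lay far apart in genes such as Bub1. Their median of 0.35 became 0.98 with EV replicate 1 left out and -0.16 with EV replicate 2 left out. Bub1, a spindle checkpoint kinase, had the largest difference there (0.83, adjusted p = 0.435), with EV at 11.30 and 9.57 and IKK_K171E at 11.45 and 11.08.

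The ribosome assembly list lay farther from EV in IKK_K171E replicate 1 than in replicate 2. Of 33 measured members of the MYC and ribosome list, Rrs1, Nop58 and Gnl3 rose and 0 fell. Arrays were separated upward for 29 of them, as they were for 17.6% of all features. Rrs1, a ribosome assembly factor, was 7.84 and 7.66 in EV and 8.98 and 8.94 in IKK_K171E (1.21, SE 0.10, adjusted p = 0.00840). Nop58, a nucleolar RNA-modification protein, was 10.64 and 10.16 in EV and 11.81 and 11.46 in IKK_K171E, and Gnl3 (nucleostemin) was 9.95 and 10.02 in EV and 11.33 and 10.88 in IKK_K171E. The median was 0.55, 0.29 without IKK_K171E replicate 1 and 0.81 without replicate 2, where 19 members were called. Without EV replicate 2, 1 member was. Srm, spermidine synthase, had the largest difference of the list (1.41, adjusted p = 0.0734), and Myc itself was at 0.45 (adjusted p = 0.411).

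Of 32 measured genes of nucleotide synthesis, Dctd was the 1 that rose (1.98, SE 0.21) and 0 fell, with a median of 0.44. The count called higher was 4 without EV replicate 1 and 12 without IKK_K171E replicate 2, and the median ran from 0.25 to 0.66 when 1 array was left out. Tyms, the thymidylate synthase gene that uses the product of Dctd, was at 0.95 (adjusted p = 0.0652). Of 20 sterol genes Idi1 rose, through 2 features at 1.71 and 1.70, and so did Cyp51, a demethylase of the pathway (0.69, SE 0.12), with 0 lower and a median of 0.35. Sterol genes called higher numbered 0 without EV replicate 2, where the median was 0.19, and 4 without IKK_K171E replicate 2. Hmgcs1, an early enzyme of the pathway, was at 0.52 and Sqle at 0.53, and neither passed. In the stress response list 1 of 29 members rose, the cystine transporter gene Slc7a11, at 7.59 and 7.23 in EV and 8.61 and 8.61 in IKK_K171E (1.20), and 0 fell. Without IKK_K171E replicate 2, 4 of them were called higher, and the list median of 0.30 was 0.10 without EV replicate 1. Asns (1.13, adjusted p = 0.182), a target of ATF4, did not pass, nor did Hk2 (0.66, adjusted p = 0.139), the farthest from 0 of 17 glycolysis genes, of which 2 were called higher without IKK_K171E replicate 2.

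**Figure D4:**
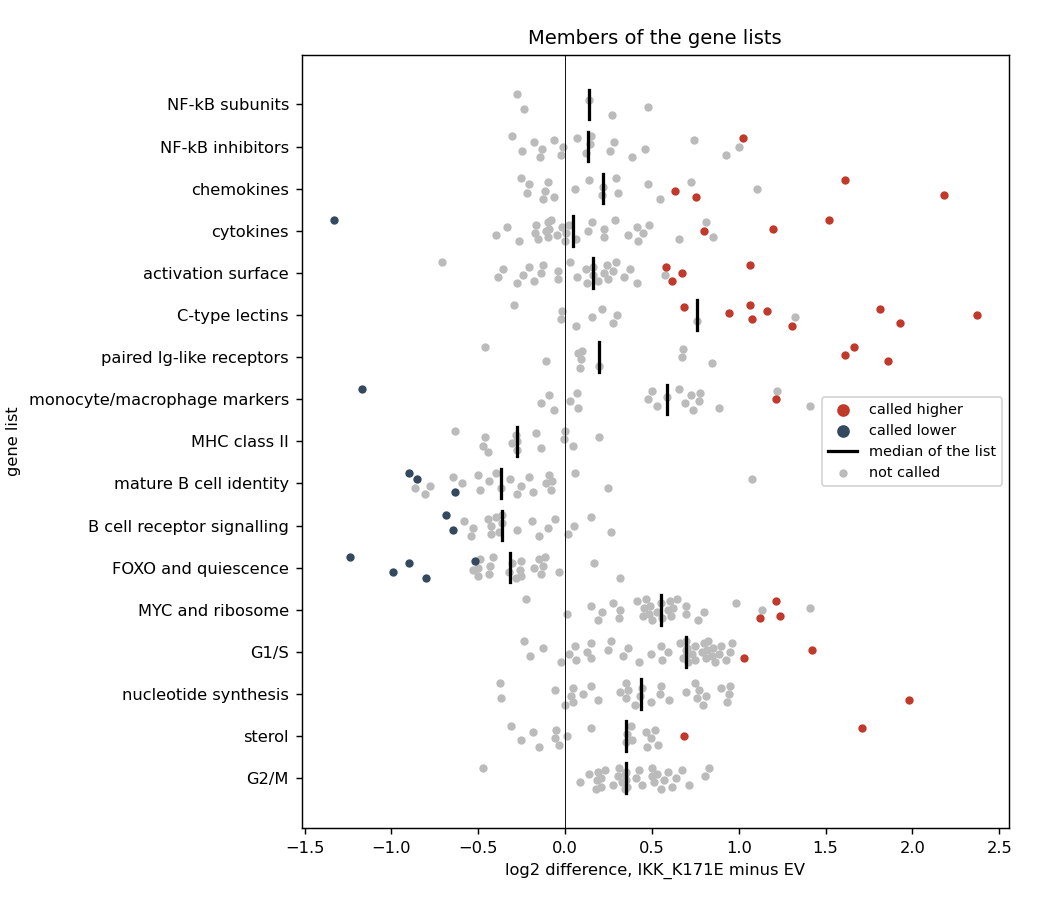
Log2 difference between IKK_K171E and EV (x axis) for each measured member of 17 gene lists (rows), with members called higher in red, called lower in dark blue, not called in grey, and the median of the list as a black bar. The C-type lectins have 9 red points and a median of 0.76, and the FOXO and quiescence list has 5 dark blue points and a median of -0.31.

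Decreases included genes of quiescent and mature B cells. Of 26 measured FOXO and quiescence genes 5 fell and 0 rose, against 0.413% of all features called lower, and the IKK_K171E arrays lay below both EV arrays for 18 (28.4% of all features did so). Satb1, a chromatin organiser, was 11.85 and 11.83 in EV and 10.45 and 10.75 in IKK_K171E (-1.24, SE 0.12, adjusted p = 0.0119). Txnip, a brake on glucose uptake, was 11.44 and 11.48 in EV and 10.50 and 10.45 in IKK_K171E (-0.99, SE 0.09, adjusted p = 0.00840). For both genes the groups lay much farther apart than the replicates. Bach2, which restrains plasma cell differentiation, was 10.37 and 10.32 in EV and 9.30 and 9.59 in IKK_K171E and fell by 0.90. Ypel3, a growth suppressor, fell by 0.80, and Pik3ip1, an inhibitor of PI3 kinase, by 0.52. Foxo1 (-0.44, adjusted p = 0.105), Btg1 (-0.50, adjusted p = 0.0820) and Cdkn1b (-0.50, adjusted p = 0.0886) did not pass. The median of the list was -0.31. Of the 26 genes, 2 were called lower without EV replicate 1, 2 without EV replicate 2 and 4 without IKK_K171E replicate 2.

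Of 25 measured genes of mature B cell identity, Bach2, Fcrla and Ccr7 fell and 0 rose, with a median of -0.37. Without EV replicate 2, 1 was called lower and 1 higher. Fcrla, an intracellular Fc receptor-like protein of B cells, was 10.94 and 10.82 in EV and 10.01 and 10.04 in IKK_K171E (-0.85, SE 0.09, adjusted p = 0.0151), and Ccr7, the receptor that guides lymphocytes to T cell zones, was 11.34 and 11.30 in EV and 10.64 and 10.74 in IKK_K171E (-0.63, SE 0.09). Fcer2a, which encodes CD23, a receptor for IgE, lay the other way, at 9.89 and 11.32 in EV and 11.79 and 11.57 in IKK_K171E (1.08, adjusted p = 0.241), with EV arrays that differed by more than the groups. Pax5 (-0.21), Ms4a1 (-0.11), Ikzf1 (-0.08) and Spi1 (-0.09) were near 0 by comparison. In the B cell receptor list Cd22 and Cd72, both inhibitory coreceptors, fell and 0 of 21 rose. Cd22 was 12.26 and 12.10 in EV and 11.44 and 11.63 in IKK_K171E. Cd72 was 12.10 and 12.30 in EV and 11.40 and 11.63 in IKK_K171E. Over all features, 28.4% had both IKK_K171E arrays below both EV arrays. The median of that list was -0.36, with arrays separated downward for 15 of 21, and 0 members were called without EV replicate 2.

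Of 14 measured germinal centre genes Fas rose, and Lmo2 (-0.57) and Irf8 (-0.84) fell; Irf8, a transcription factor of B and myeloid cells, was 11.15 and 10.80 in EV and 10.08 and 10.19 in IKK_K171E. Without EV replicate 1, 0 of the 14 were called, and without EV replicate 2 or IKK_K171E replicate 2 1 was called lower and 0 higher. Bcl6, the master regulator of that stage, was at -0.58 (adjusted p = 0.0941). Of 20 plasma cell genes 0 passed in limma, and Prdm1 (0.28, adjusted p = 0.576), Irf4 (0.03), Xbp1 (0.06) and Sdc1 (-0.10) lay within 0.30 of 0, Cxcr3 being farthest (-0.64, adjusted p = 0.318). Of 14 MHC class II genes 0 passed, and H2-Oa, a subunit of the loading modulator DO, was farthest from 0 at 11.05 and 10.95 in EV and 10.22 and 10.51 in IKK_K171E (-0.63, adjusted p = 0.0543). In that list 1 gene was called lower without EV replicate 1 and 1 without IKK_K171E replicate 2. Of 15 MHC class I genes 0 passed, with the chaperone gene Calr at 0.64 (adjusted p = 0.0914). No gene of 25 in the cytokine receptor and STAT list passed with all arrays (2 were called lower without EV replicate 2), and Il10ra had EV arrays at 10.57 and 9.65 and IKK_K171E arrays at 9.42 and 9.26. Among 24 migration genes Ackr3, a scavenging receptor of CXCL12, rose by 1.16 and Itgax by 0.68, and Ccr7 fell. Without EV replicate 2, 1 migration gene was called higher and 0 lower.

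The other genes among the largest decreases or the smallest p-values fall into no list. Cpm, a membrane carboxypeptidase, was 10.67 and 10.63 in EV and 9.35 and 9.48 in IKK_K171E (-1.24, SE 0.11, adjusted p = 0.00840), and Pold4, the small subunit of DNA polymerase delta, was 10.93 and 11.16 in EV and 10.07 and 9.96 in IKK_K171E (-1.03, SE 0.11). Sorl1, a sorting receptor, was 10.98 and 10.91 in EV and 9.69 and 10.04 in IKK_K171E, and Tcp11l2 was 9.71 and 9.87 in EV and 8.47 and 8.75 in IKK_K171E. Rasa3, which turns off Ras and Rap GTPases, fell by 0.97, Lax1, an adaptor that dampens lymphocyte receptor signals, by 0.93, and Dgkd, a diacylglycerol kinase, by 0.85. The protease inhibitor gene Serpinb1a fell by 0.92, the ceramide kinase gene Cerk by 0.91, the sulfotransferase gene Hs3st1 by 0.91 and the ubiquitin ligase gene Rnf144a by 0.87. Smim14 fell by 0.87, 6330407A03Rik by 0.88, and Kif21b, a kinesin, by 0.84.

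**Figure D5:**
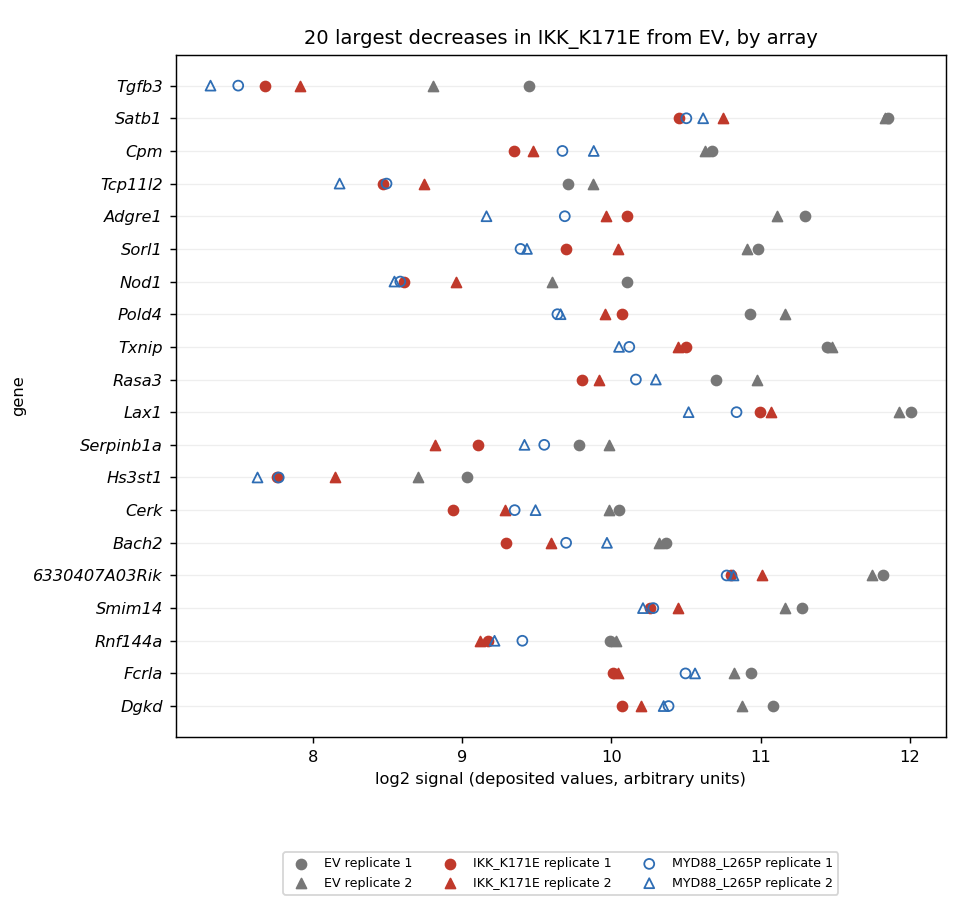
Log2 signal in each of the 6 arrays for the 20 genes with the largest decreases in IKK_K171E from EV, ordered by the difference; filled grey symbols are EV, filled red symbols IKK_K171E and open blue symbols MYD88_L265P, with circles for replicate 1 and triangles for replicate 2. Both red symbols lie to the left of both grey symbols in each row; for Satb1 they are at 10.45 and 10.75 against 11.85 and 11.83.

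The MYD88_L265P arrays, from the same fit, show which of these genes differed between the 2 constructs. That comparison shares the IKK_K171E arrays with the one above, so its values are set beside it gene by gene. Ccl22 was 9.83 and 8.65 in MYD88_L265P, and MYD88_L265P minus IKK_K171E was -3.24 (SE 0.37, adjusted p = 0.0152). Lcp2 was 8.57 and 8.24 (MYD88_L265P minus IKK_K171E -2.08, adjusted p = 0.0106), Cxcl10 7.82 and 7.73 (-1.37, adjusted p = 0.00929), Cd40 9.44 and 9.52 (-1.15, adjusted p = 0.0152) and Tmem176b 8.55 and 8.48 (-1.62, adjusted p = 0.00340). These genes stood near the EV level or below it with MYD88_L265P. Fas and Flt3 were lower with MYD88_L265P, at 9.69 and 9.54 (-1.34, adjusted p = 0.00340) and 9.41 and 9.19 (-1.63, adjusted p = 0.00265). The difference between constructs did not pass for Tnfaip3 (-0.49, SE 0.14, adjusted p = 0.137), Dctd (0.18, SE 0.21), Idi1 (0.31, SE 0.24), Ccne2 (0.36, SE 0.17), Satb1 (-0.04, SE 0.12) or Txnip (-0.39, SE 0.09, adjusted p = 0.0819). Dctd was 10.36 and 10.50 and Txnip 10.12 and 10.05 in MYD88_L265P. A missed threshold does not show that the constructs acted alike on those genes. Serinc5, which was 9.23 and 9.04 in EV and 8.21 and 8.40 in IKK_K171E and fell, was 9.21 and 9.42 in MYD88_L265P (1.01, adjusted p = 0.0156). Fscn1, an actin-bundling protein, was 8.29 and 8.42 in EV and 10.01 and 9.56 in IKK_K171E, and 8.16 and 8.09 in MYD88_L265P (-1.66, adjusted p = 0.00703). Cd96, a receptor known from T and NK cells, was 7.80 and 7.93 in EV and 8.72 and 9.09 in IKK_K171E, and 7.24 and 7.04 in MYD88_L265P (-1.77, adjusted p = 0.00405). Car13, a carbonic anhydrase, differed in the other direction, at 8.06 and 7.92 in EV and 8.58 and 8.60 in IKK_K171E and 9.71 and 9.79 in MYD88_L265P (1.16, adjusted p = 0.00405). Serinc5, Fscn1, Cd96 and Car13 were chosen after their values were seen.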

How the data were processed

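Each sample was hybridised to 1 Affymetrix mouse ST 1.0 array. The authors deposited log2 signals for each feature; oligo and limma are named, without versions, per the submitters' processing notes; background correction, normalization and genome build are not given in the sources used here. Array medians ran from 8.03 to 8.13, and no value was transformed, scaled or filtered. Samples were grouped by their descriptions, whose replicate numbers 1 and 2 correspond to title numbers 2 and 3 in EV and 1 and 3 in the other groups. P-values refer to these arrays only. Each sets a difference between group means against the spread within all 3 groups, and draws also on the spread of other features.

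Group means were fitted to all 6 arrays with limma 3.58.1 in R 4.3.3, and moderated by eBayes, with 3 degrees of freedom left by the fit and 4.17 from the prior. Tests were two-sided, with Benjamini-Hochberg adjustment over 21542 features; 1522 features with several symbols and 1679 with none were left out of the reported fit. The fit was also run on simulated data with independent noise for each feature and array. Those data held no shift shared by many genes of an array, so the run does not bear on such shifts. In 37 lists (804 genes, 730 measured) the feature with the highest mean stood for its gene, and lists were described by counts and medians with no set test. Named genes were the 20 largest called changes in each direction, the called list members, all NF-kB pathway members, the farthest member of a list with no call, the 10 called genes most different between the IKK_K171E arrays and the 6 with the smallest p-values in each direction. Other genes were named after their values were seen. The comparison, lists and rule were chosen with earlier results of these data known. Platform annotation gave the gene names, and 21472 tested features have an Entrez identifier in the RefSeq table.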

Additional observations from a re-analysis of the deposited data

How the results depend on the processing

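Alternatives were planned except the counts of list members without each array, which were added after the data were seen. With the 206 higher and 89 lower features of the reported fit as the reference, the counts were 462 and 164 with the replicate numbers as a replicate block, 44 and 7 with only the 4 arrays of EV and IKK_K171E, 99 and 24 with array weights, and 103 and 28 with all features of the table. Lower features numbered 142 under quantile normalization and 140 without the lowest quartile of signal, and requiring 2-fold left 80 and 8. Leaving out 1 array gave from 0 to 418 higher and from 0 to 95 lower features. An intensity trend, robust moderation and a common median kept both counts within 1.5 times. Same-numbered arrays deviated together only weakly (correlation 0.211 between EV and IKK_K171E, 0.105 between EV and MYD88_L265P, 0.144 between the constructs). Replicate 2 has title number 3 in all 3 groups. Replicate 1 has title number 1 in both constructs and 2 in EV. No label says that a number marks a shared batch, and the reported fit did not take the numbers to pair the arrays. The block ended no call of the 87 named called genes and added calls for 5 of the 52 named genes without one (Ifih1, Nfkbia, Calr, H2-Oa and Irak2, adjusted p from 0.0190 to 0.0442). Of these 87, 54 lost the call with only 4 arrays, 36 with all features, 35 with array weights, 10 with a common median, 23 and 38 without EV replicates 1 and 2, and 87 and 21 without IKK_K171E replicates 1 and 2. No value of these 87 changed sign under an alternative. Leaving out or reweighting arrays could not change one, because both IKK_K171E arrays lay on one side of both EV arrays in every called feature. The cause of these changes was not tested. Low signals were not separated from background.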
